A study of Mus musculus with 48 samples.

Results

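Fth1, Ftl1, Hmox1, Slc40a1, Tfrc, Trf, Slc11a1 and Slc11a2 are the 8 genes described here, of 35870 in the deposited table. They were taken by symbol, as genes for the storage, uptake, release and export of iron, and all 8 passed the filter on low counts in both tissues. Polyadenylated RNA was sequenced from 48 libraries of male C57BL/6 wild-type mice, 8 libraries in each of 6 groups. Brain-resident macrophages, the microglia, came from dissociated brain by sorting on Cd11b and Cd45, a gate that other myeloid cells also meet, and whole spinal cord was frozen as intact tissue. In each tissue, old repopulated mice (23 months) were given a Csf1r inhibitor for 5 days and then left for 7 days to recover, old mice (23 months) received vehicle, and young mice (3 months) received vehicle. Csf1r is the receptor on which microglia depend for survival, so its inhibition is known to deplete them, and they are known to grow back once it stops. No transgene or deletion is given in the labels for any group, and C57BL/6 mice are known to carry a loss-of-function allele of Slc11a1, which is therefore shared by all groups. How many animals stand behind the 8 libraries of each group, and if the same mice gave brain and cord, is not stated in the labels, so p-values measure only the spread between these libraries, which may be technical.

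Cells take up iron mainly as transferrin (Trf), the iron carrier of blood and brain fluid, which binds the transferrin receptor (Tfrc) and is internalised. Slc11a2, also called DMT1, moves the released iron from the endosome into the cytosol, and Slc11a1, also called NRAMP1, moves metal out of the phagosome of macrophages and neutrophils. Iron that is not used is stored in ferritin, a shell built of heavy chains (Fth1), which oxidise iron, and light chains (Ftl1), which help to form its mineral core. Hmox1, haem oxygenase 1, frees iron from haem, and Slc40a1, ferroportin, is the known iron exporter of mammalian cells. Macrophages are known to recycle iron from engulfed cells, and iron and ferritin are known to build up in glia of the ageing brain.

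Several of these transcripts carry iron-responsive elements, hairpins that iron regulatory proteins bind when iron is low. Binding in the 5′ UTR is known to block translation, and binding in the 3′ UTR of Tfrc is known to protect the transcript from decay, so that ferritin and ferroportin protein can change without any change in the RNA measured here. A search of the GENCODE M21 transcripts (GRCm38) for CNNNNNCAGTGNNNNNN, read on the transcript strand, with 5 pairable bases on each side of the loop found a match in 4 of the 8 genes. Such a match was held by 0.142% of 21877 coding genes in a 5′ UTR, by 0.59% in a 3′ UTR and by 0.731% in either. The 7 matches are printed 5′ to 3′ on the transcript strand, with the loop of the hairpin in capitals. The search fixed the first C, the CAGTG and the pairing of the stem in every match. Likeness between genes in those features was therefore set by the search. A match is a description and not evidence of binding in these samples. A hairpin with other pairing would be missed, so a gene without a match may still hold an element. The matches lay in 4 of 5 coding transcripts of Fth1, 1 of 2 of Ftl1, 1 of 4 of Slc40a1 and 1 of 3 of Tfrc.
Fth1 5′ UTR, chr19:9982733-9982759, plus strand: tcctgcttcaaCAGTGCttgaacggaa
Ftl1 5′ UTR, chr7:45459780-45459806, minus strand: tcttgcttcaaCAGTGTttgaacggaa
Slc40a1 5′ UTR, chr1:45925466-45925492, minus strand: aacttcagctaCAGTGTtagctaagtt
Tfrc 3′ UTR, chr16:32631220-32631246, plus strand: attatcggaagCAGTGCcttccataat
Tfrc 3′ UTR, chr16:32631599-32631625, plus strand: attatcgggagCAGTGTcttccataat
Tfrc 3′ UTR, chr16:32631664-32631690, plus strand: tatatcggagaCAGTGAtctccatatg
Tfrc 3′ UTR, chr16:32631711-32631737, plus strand: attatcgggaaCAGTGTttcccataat
The Fth1 and Ftl1 elements were identical at 25 of 27 bases and differed by C3T and C17T, written with the Fth1 base first and counted from the 5′ end of the printed sequence. Tfrc held 4 matches, all within its 3′ UTR. The genes themselves lie at chr19:9980598-9985098 (Fth1), chr7:45457944-45459884 (Ftl1), chr8:75093621-75100589 (Hmox1), chr1:45908068-45926523 (Slc40a1), chr16:32608920-32632794 (Tfrc), chr9:103204001-103230444 (Trf), chr1:74375195-74386062 (Slc11a1) and chr15:100387898-100425072 (Slc11a2) in GENCODE M21.

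Libraries held between 18741936 and 34496308 counts in microglia and between 15909868 and 33004806 in cord. The sorted cells matched their label, as the 8 microglial markers summed to between 32061 and 58499 TPM in microglia libraries and to between 256 and 729.5 TPM in cord. Markers of other cells were present in the sort too, and none of the 8 neutrophil markers was at 0 throughout a group. Their summed level was 2157 to 9944 TPM in old repopulated, 6416 to 28097 TPM in old and 718 to 3657 TPM in young microglia. Monocyte markers summed to 176 to 415.4 TPM, 461 to 1152 TPM and 69.7 to 187 TPM in the same groups, and border-associated macrophage markers to 71.9 to 139.8 TPM, 272 to 593 TPM and 137 to 358 TPM. The part of these cells in the results on microglia was not tested. Old repopulated cord replicate 6 stood apart, with 3.16% of its counts on ribosomal protein genes against at most 1.27% in the other 7 libraries of its group, and the main results that it changes are given with and without it.

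Levels between genes and tissues are compared in TPM, the deposited values per transcript length, and no test was made between tissues because sorted cells and whole tissue were prepared differently. Fth1 was the most abundant of the 8 genes in cord, at 7198 ± 1862 TPM in old repopulated, 6610.4 ± 439.8 TPM in old and 5438 ± 597 TPM in young cord (SD, n = 8 each). In microglia it averaged 4596 ± 649, 4345 ± 444.4 and 2025 ± 155 TPM in old repopulated, old and young mice, ranks 30, 31 and 57 among all genes. Ftl1 was the more microglial chain, at 4891 ± 1109, 4473 ± 472 and 2589 ± 147 TPM in old repopulated, old and young microglia, and at 1275 ± 164, 1172 ± 153 and 870 ± 133 TPM in the same groups of cord. The heavy to light ratio in TPM therefore had a median of 0.972, 0.974 and 0.788 in old repopulated, old and young microglia and of 5.43, 6.03 and 6.63 in cord. In young animals the ratio never exceeded 0.821 in microglia and never fell under 4.10 in cord.

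Slc11a1 and Slc40a1 were the most microglial of the 8 genes. Slc11a1 stood at 498 ± 27.0, 488 ± 48.7 and 400 ± 22.7 TPM in old repopulated, old and young microglia, and at 12.8 ± 1.69, 12.7 ± 1.94 and 4.23 ± 0.387 TPM in cord, so that young microglia held 94.5 times the level of young cord. Slc40a1 averaged 72.9 ± 14.6, 95.0 ± 15.96 and 143 ± 18.9 TPM in old repopulated, old and young microglia against 11.9 ± 2.72, 12.6 ± 1.38 and 11.2 ± 1.05 TPM in cord, 12.8-fold higher in microglia of young mice. Hmox1 was 2.22-fold higher in young microglia, at 69.8 ± 6.27 TPM, than in young cord, at 31.4 ± 6.87 TPM.

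The uptake receptor was more abundant in cord. Tfrc averaged 5.58 ± 2.08, 9.14 ± 0.697 and 8.49 ± 1.53 TPM in old repopulated, old and young microglia, against 63.9 ± 14.0, 74.2 ± 4.55 and 92.5 ± 4.40 TPM in cord, 10.9-fold higher in cord of young mice. Slc11a2 was 1.70-fold higher in young cord (23.1 ± 1.22 TPM) than in young microglia (13.6 ± 1.30 TPM). The young groups of the 2 tissues did not overlap for any of the 8 genes. Within the order of the 6 groups by level, most neighbours of the same tissue overlapped, the exceptions being Fth1 and Ftl1 in old over young microglia, Slc11a1 in old over young cord and Tfrc in young over old cord.

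Trf was abundant in both tissues, at 2331 ± 485, 2452 ± 211 and 2596 ± 137 TPM in old repopulated, old and young microglia and at 1435 ± 155, 1477 ± 139 and 1241 ± 217 TPM in cord. In the mouse nervous system oligodendrocytes and choroid plexus are known sources of transferrin. The 8 oligodendrocyte markers summed to 134 to 349 TPM over the microglia libraries and to 8752 to 14356 TPM over cord, where Trf was lower. The 4 choroid plexus markers, Ttr among them, summed to 381 to 2089, 316 to 3046 and 739 to 3745 TPM in old repopulated, old and young microglia and to at most 6.48 TPM in cord, and their part in the Trf level was not tested.

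**Figure D1:**
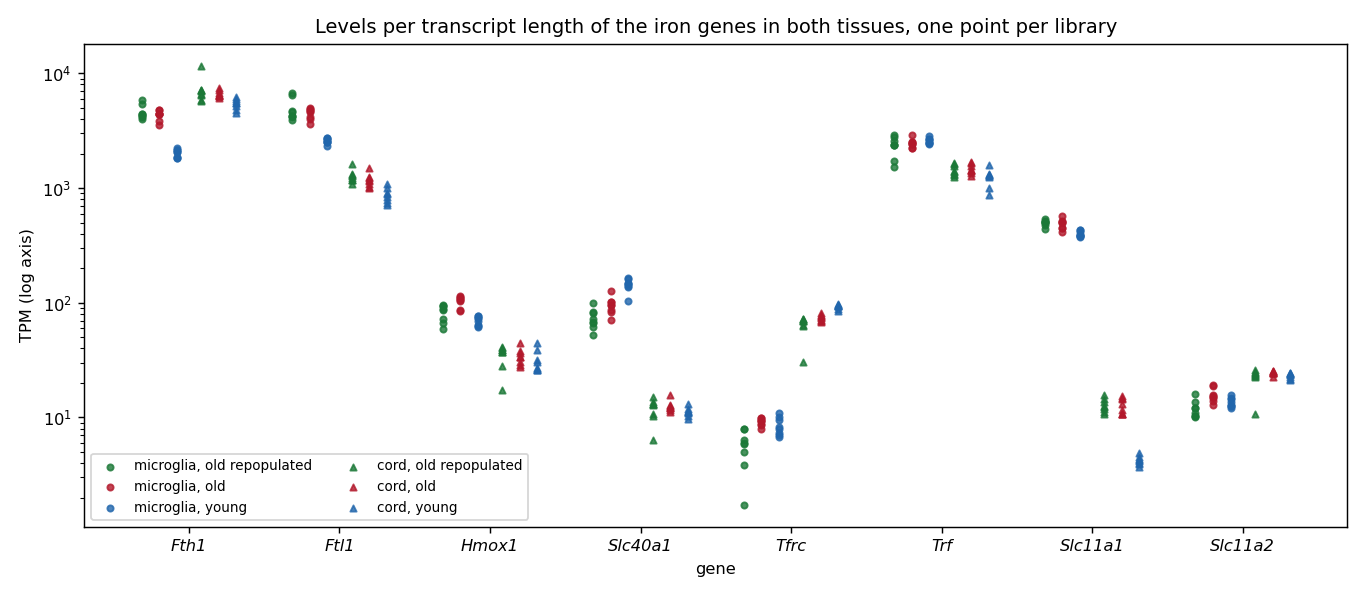
Deposited TPM of the 8 iron genes on a log axis, one point per library, with circles for microglia and triangles for cord and with old repopulated, old and young libraries from left to right in each cluster. Slc11a1 and Slc40a1 lie higher in microglia, Tfrc and Fth1 lie higher in cord, and the lone low triangles for Tfrc and Slc11a2 (30.4 and 10.8 TPM) are old repopulated cord replicate 6.

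Tests used counts, and levels beside them are TMM-scaled CPM, counts relative to each library total after adjustment by its TMM factor. A gene was called when its p in edgeR's quasi-likelihood test, adjusted by the Benjamini-Hochberg method over all genes tested in that tissue, was under 0.05. In old against young microglia, ferritin, Hmox1 and both Slc11a transporters rose and the exporter Slc40a1 fell. Of the 8 genes 5 were called higher and 1 lower, where 11.0% of all 14382 genes tested were called higher and 10.7% lower. The groups did not overlap for 4 of the 8, against 7.16% of all genes. The median log2 change was 0.31 over the 8 genes and −0.01 over all genes tested.

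The ferritin chains changed most. Fth1 ran from 1961 through a median of 2875 to 3465 CPM in old microglia and from 1027 through 1269.8 to 1529 CPM in young. All 8 old libraries lay above all 8 young ones. The mean was 2829 ± 490 CPM in old and 1249 ± 151 CPM in young microglia, a 2.27-fold rise (log2 1.18, SE 0.11, adjusted p = 6.72e-10). Ftl1 ran from 1291 to 2199 CPM in old microglia and from 899 to 1199 CPM in young, again without overlap. It averaged 1869 ± 327 CPM in old and 1023 ± 90.9 CPM in young, a 1.83-fold rise (log2 0.87, SE 0.12, adjusted p = 2.20e-06). The ratio of heavy to light chain within a library, which does not depend on how libraries are scaled, was 0.906 to 1.05 in old and 0.733 to 0.821 in young microglia, with no overlap.

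Hmox1, the haem-degrading enzyme, ran from 53.8 to 80.9 CPM in old and from 37.0 to 52.6 CPM in young microglia, without overlap. Its mean was 69.6 ± 9.80 CPM in old and 44.8 ± 5.28 CPM in young, a 1.55-fold rise (log2 0.64, SE 0.11, adjusted p = 4.17e-05). Ferroportin went the other way. Slc40a1 ran from 118 through 141 to 161 CPM in old and from 162 through 204 to 230 CPM in young microglia, and every old library was below every young one, though on the TPM scale the 2 groups overlapped. It averaged 141 ± 15.6 CPM in old and 202 ± 18.8 CPM in young (log2 −0.52, SE 0.09, adjusted p = 4.68e-05, 1.44-fold lower). Young replicate 7, at 162 CPM, was the lowest young library and stood apart from the next at 202 CPM.

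The divalent metal transporters changed less. Slc11a1, the phagosomal transporter, averaged 537 ± 64.4 CPM in old and 419.4 ± 42.8 CPM in young microglia, with 6 of 8 old libraries above all young ones (log2 0.36, SE 0.07, adjusted p = 2.58e-04). Slc11a2 averaged 43.6 ± 5.88 CPM in old and 36.0 ± 3.69 CPM in young (log2 0.27, SE 0.10, adjusted p = 0.0388). The Slc11a2 call was the least secure of the 6, since it was lost without any one of 8 single libraries (adjusted p up to 0.0827), with the replicate number as a block (adjusted p = 0.0781) and on log2(TPM + 1) (adjusted p = 0.186). The receptor and its ligand did not pass the test. Tfrc averaged 20.2 ± 1.76 CPM in old and 17.8 ± 3.16 CPM in young (log2 0.18, SE 0.18, adjusted p = 0.563). Trf averaged 2439 ± 182 CPM in old and 2463 ± 145 CPM in young (log2 −0.01, SE 0.08, adjusted p = 0.947). Neutrophil and monocyte markers were all called higher in old microglia (8 of 8 in each list), and 5 of 8 border-associated macrophage markers were, while 6 of 8 microglial markers were called lower.

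**Figure D2:**
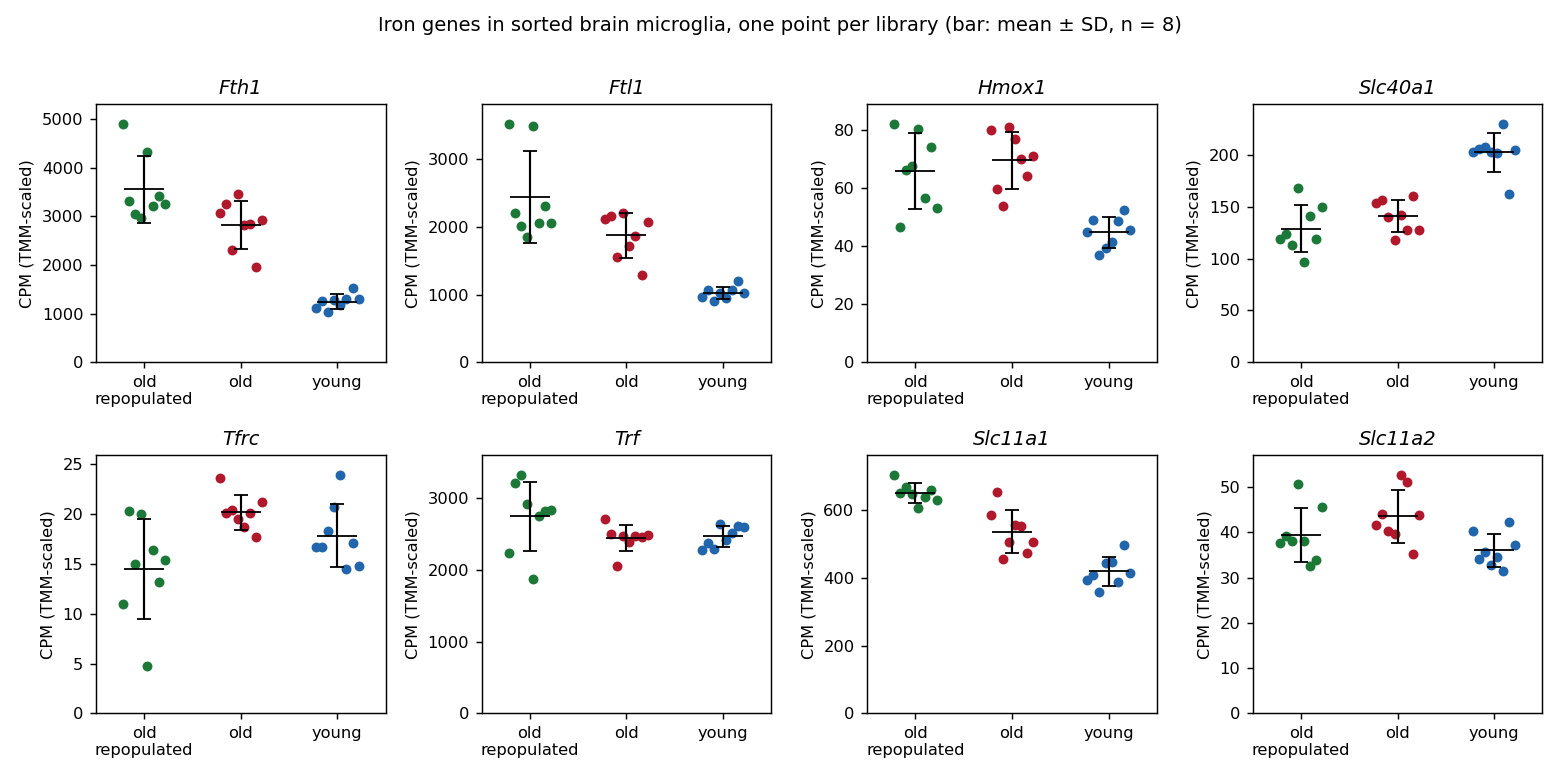
TMM-scaled CPM of the 8 iron genes in sorted brain microglia, one point per library in replicate order, with the mean and SD of 8 libraries as a bar, for old repopulated, old and young mice from left to right. Fth1, Ftl1 and Hmox1 lie above the young range in every old library, Slc40a1 lies below it in every old library, and in old repopulated microglia the 2 highest Ftl1 points (3518 and 3488 CPM) are replicates 1 and 5.

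In old repopulated against old microglia, Fth1, Ftl1 and Slc11a1 were called higher and no gene of the 8 was called lower, where 9.05% of all genes were called higher and 7.20% lower, and the groups overlapped for all 8, while 3.06% of all genes had no overlap. The median log2 change was 0.05 over the 8 genes and −0.04 over all genes. Fth1 ran from 2957 through 3287 to 4904 CPM in old repopulated and from 1961 through 2875 to 3465 CPM in old microglia. Its mean was 3552 ± 686 CPM in old repopulated and 2829 ± 490 CPM in old (log2 0.33, SE 0.11, adjusted p = 0.0309). Ftl1 averaged 2433 ± 673 CPM in old repopulated and 1869 ± 327 CPM in old (log2 0.38, SE 0.12, adjusted p = 0.0284).

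Both ferritin calls were lost without any one of 4 libraries. They were lost with the oligodendrocyte marker level as a covariate (adjusted p = 0.198 for Fth1 and 0.273 for Ftl1). That covariate holds no neutrophil, monocyte or border-associated macrophage markers, so it does not adjust for those cells. Both calls were lost with only the 2 groups in the fit (0.0611 and 0.0718). They were also lost without old replicates 2 and 7 together (0.0579 and 0.0579), and 6 of 13 other settings kept them. Replicates 1 and 5 of the old repopulated group, at 4904 and 4311 CPM of Fth1, were its highest, and the other 6 ran from 2957 to 3406 CPM. Without replicate 1 the log2 change of Fth1 was 0.25 (adjusted p = 0.0941) and without replicate 5 it was 0.28 (adjusted p = 0.0762). Without both, a choice made after seeing the data, it was 0.18 for Fth1 (adjusted p = 0.279) and 0.15 for Ftl1 (adjusted p = 0.356). Both calls were also lost without old replicate 3 (adjusted p = 0.0629 and 0.0548) and without old replicate 7 (adjusted p = 0.0604 and 0.0552). Neutrophil markers were all called lower in old repopulated microglia (8 of 8), as were 8 of 8 border-associated macrophage and 5 of 8 monocyte markers.

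Slc11a1 ran from 606 to 705 CPM in old repopulated and from 456 to 654 CPM in old microglia. It averaged 651 ± 29.2 CPM in old repopulated and 537 ± 64.4 CPM in old (log2 0.28, SE 0.07, adjusted p = 0.00499), and its call held without any single library. Tfrc was the most variable gene in the repopulated cells, running from 4.75 through 15.2 to 20.4 CPM, against 17.7 through 20.1 to 23.6 CPM in old microglia. The lowest values, 4.75 and 11.03 CPM, were replicates 5 and 1, the libraries with the most ferritin. Tfrc averaged 14.5 ± 5.04 CPM in old repopulated and 20.2 ± 1.76 CPM in old, 6 of 8 repopulated libraries were below all old ones, and the test missed the threshold (log2 −0.48, SE 0.18, adjusted p = 0.0636). DESeq2 called it lower (adjusted p = 0.0427), and it passed edgeR's test without old repopulated replicate 2 (log2 −0.56, adjusted p = 0.0294) or replicate 4 (log2 −0.55, adjusted p = 0.0303). Of 13 other settings 9 left Tfrc uncalled, and its log2 change ran from −0.82 to −0.27 over them. Of 24 single-library exclusions in edgeR 22 left it uncalled, with log2 from −0.56 to −0.34 (adjusted p up to 0.124).

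The other 4 genes did not pass the test. Slc40a1 averaged 129 ± 22.6 CPM in old repopulated and 141 ± 15.6 CPM in old microglia (log2 −0.13, adjusted p = 0.381). Hmox1 averaged 65.9 ± 12.9 CPM in old repopulated and 69.6 ± 9.80 CPM in old (log2 −0.08, adjusted p = 0.687), and Slc11a2 39.4 ± 5.99 CPM and 43.6 ± 5.88 CPM (log2 −0.14, adjusted p = 0.353). Trf averaged 2744 ± 479 CPM in old repopulated and 2439 ± 182 CPM in old (log2 0.17, adjusted p = 0.168), with 6 of 8 repopulated libraries above all old ones and replicates 5 and 1, at 1873 and 2238 CPM, lowest. It was called higher by limma-voom with quality weights (log2 0.22, adjusted p = 0.0408), without replicate 5 (log2 0.23, adjusted p = 0.0180) and without replicates 1 and 5 (log2 0.28, adjusted p = 0.00185).

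The direction of this comparison depended on the scaling of the libraries. With total counts in place of TMM the median of all genes moved to −0.21, and 17.6% of called genes were higher, against 55.7% under TMM. Of all 14382 genes tested, 592 were called higher and 2779 lower with total counts. On that scale no gene of the 8 was called higher and 3 were called lower, namely Slc40a1 (log2 −0.29, adjusted p = 0.0271), Tfrc (log2 −0.64, adjusted p = 0.0113) and Slc11a2 (log2 −0.31, adjusted p = 0.0208). On log2(TPM + 1) Hmox1 was lower as well (log2 −0.34, adjusted p = 0.00641), 4 genes in all, and Fth1 differed by 0.08 (adjusted p = 0.483), Ftl1 by 0.11 (adjusted p = 0.420) and Slc11a1 by 0.03 (adjusted p = 0.673). Of all 14382 genes, 495 were called higher and 4284 lower on log2(TPM + 1). Trf, at log2 0.17 under TMM, was −0.10 on log2(TPM + 1) and not called on either. Set against the median of all genes, which largely removes a scaling by construction, Fth1 lay 0.37 above it under TMM and 0.29 above it on log2(TPM + 1). On the same 2 scales Tfrc lay at −0.44 and −0.49, Trf at 0.21 and 0.11, Slc40a1 at −0.09 and −0.17 and Hmox1 at −0.04 and −0.13 from that median, so Trf, Slc40a1 and Hmox1 depended on the scale here too. Ribosomal protein genes took 5.24% to 6.36% of counts in old repopulated and 2.13% to 4.61% in old microglia, and the part of that difference in the scaling was not tested. Ratios within a library do not depend on its scaling. The ratio of Tfrc to Fth1 in TPM had a median of 0.00141 in old repopulated, 0.00210 in old and 0.00414 in young microglia, and the range of old repopulated libraries, 0.000322 to 0.00197, overlapped that of old, 0.00164 to 0.00264, but not that of young, 0.00325 to 0.00597. The ratio of Slc11a1 to Slc11a2 had a median of 43.3 in old repopulated, 30.8 in old and 30.1 in young microglia, and that of Slc40a1 to Tfrc, exporter to receptor, 13.1, 9.90 and 17.4, all with overlapping ranges.

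Set against young microglia, old repopulated cells had higher ferritin, Hmox1 and Slc11a1 and lower Slc40a1. Of the 8 genes 4 were called higher and 1 lower, where 16.1% of all genes were called higher and 16.5% lower, and 3 of 8 had no overlap, against 13.1% of all genes. This comparison shares its libraries with the 2 before it. Neutrophil markers (8 of 8) and monocyte markers (7 of 8) were called higher in the same comparison, while 7 of 8 border-associated macrophage and 5 of 8 microglial markers were called lower. Fth1 was 2.84-fold higher (log2 1.51, SE 0.11, adjusted p = 1.31e-12) at 3552 ± 686 CPM in old repopulated and 1249 ± 151 CPM in young. Ftl1 was 2.38-fold higher (log2 1.25, SE 0.12), Hmox1 1.47-fold (log2 0.56, SE 0.11) and Slc11a1 1.55-fold (log2 0.63, SE 0.07). Slc40a1 was 1.57-fold lower (log2 −0.65, SE 0.09, adjusted p = 8.37e-07), with 7 of 8 repopulated libraries below all young ones. Hmox1 was the least secure of these, with an adjusted p of 0.0546 on log2(TPM + 1). Tfrc (log2 −0.30, adjusted p = 0.216), Trf (log2 0.16, adjusted p = 0.157) and Slc11a2 (log2 0.13, adjusted p = 0.337) did not pass the test. Trf passed it without old repopulated replicate 5 (log2 0.22, adjusted p = 0.0137), by DESeq2 (adjusted p = 0.0488) and by limma-voom (adjusted p = 0.0263), and Tfrc was called lower on log2(TPM + 1) (log2 −0.59, adjusted p = 0.00633).

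**Figure D3:**
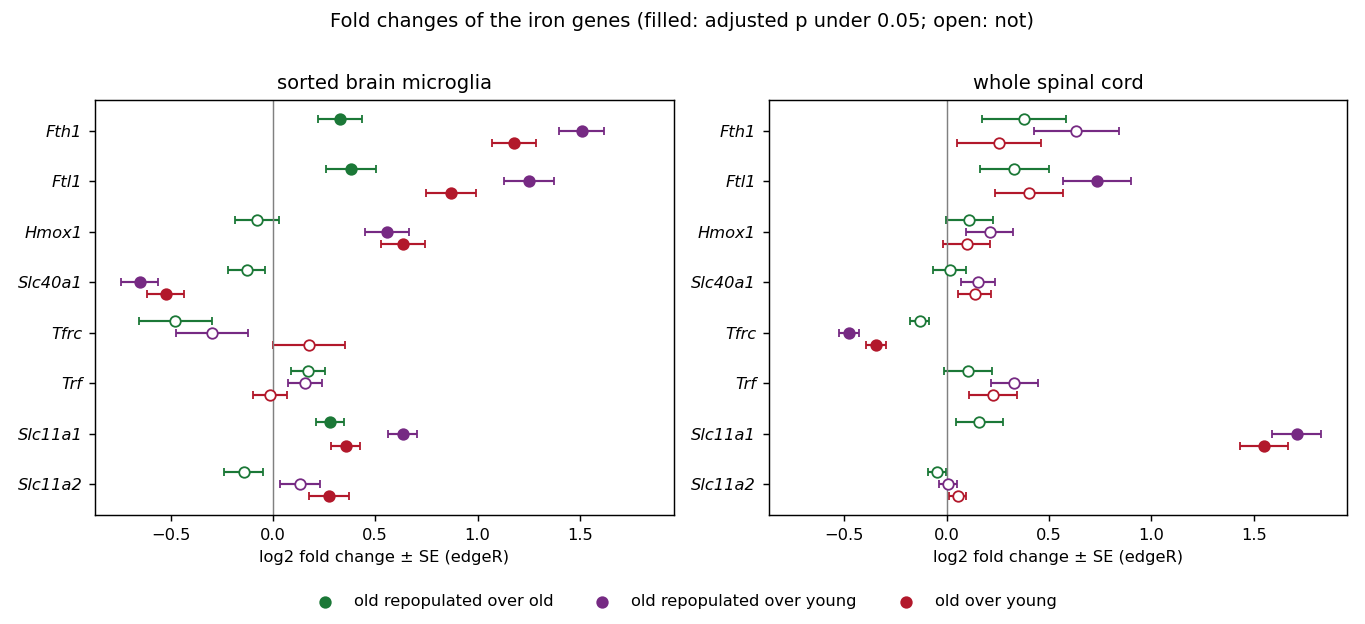
Log2 fold changes with standard errors of the 8 iron genes in microglia and in cord from edgeR, for old repopulated over old, old repopulated over young and old over young, with filled points for genes called at an adjusted p under 0.05 and open points for the rest. Ferritin is furthest to the right in microglia (Fth1 at 1.18 and 1.51 over young), and in cord Slc11a1 is (1.55 and 1.71 over young).

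Other genes of iron handling were read from 8 lists with 91 genes in all, 80 of them tested in microglia. In old against young microglia 20 of the 80 were called higher and 8 lower, where 11.0% and 10.7% of all genes were. In old repopulated against old, 9 were called higher and 14 lower, where 9.05% and 7.20% of all genes were. Many counts over a single list lie near those shares, and none is read as a result about its list. Old libraries enter both microglia comparisons below, so the values of each are given side by side and not set against each other. Among 9 tested genes for handling iron inside the cell, 2 rose and 2 fell in old against young microglia, and 1 rose in old repopulated against old (median log2 −0.03 and −0.05, against −0.01 and −0.04 over all genes). The iron chaperone Pcbp2 averaged 240.4 ± 24.7 CPM in old and 184 ± 12.4 CPM in young microglia (log2 0.38, adjusted p = 0.00381). Pcbp2 was higher again in old repopulated microglia, at 415.5 ± 91.6 CPM (log2 0.79 over old, adjusted p = 6.15e-07). Ncoa4, the receptor that delivers ferritin to autophagy, averaged 53.3 ± 6.69 CPM in old and 66.9 ± 6.19 CPM in young (log2 −0.33, adjusted p = 0.00516). Pcbp1 (log2 −0.17, adjusted p = 0.0400) and the reductase Steap4 (log2 2.13 at a mean of 1.45 CPM in old, adjusted p = 0.0362) completed the 4 in old microglia, and both calls were lost under other settings.

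Of the genes for other iron uptake, 6 were tested. In old against young microglia 2 rose and 1 fell, where 11.0% and 10.7% of all genes did. In old repopulated against old 2 fell, where 7.20% of all genes did (median log2 0.84 with age and −0.91 with repopulation). The risers were Lcn2, which encodes the siderophore binder lipocalin 2, at 367 ± 187 CPM in old and 39.9 ± 17.2 CPM in young (log2 3.20, adjusted p = 9.78e-10), and Ltf, lactoferrin, at 689 ± 293 and 74.8 ± 34.9 CPM (log2 3.20, adjusted p = 2.78e-09). Both are known granule proteins of neutrophils, whose markers were called higher in old against young (8 of 8) and lower in old repopulated against old (8 of 8), and the part of those cells was not tested. In old repopulated against old microglia Lcn2 fell to 121 ± 56.8 CPM, against 367 ± 187 CPM (log2 −1.60, adjusted p = 9.71e-05), and Ltf to 230 ± 127 CPM, against 689 ± 293 CPM (log2 −1.58, adjusted p = 2.28e-04). Slc39a8, a transporter of zinc and iron, was 1.25-fold lower in old than in young (adjusted p = 0.0290), a call lost with DESeq2 size factors or total counts.

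Among 3 tested genes for export and ferroxidases, Cp and App rose in old against young microglia, where 11.0% of all genes did. In old repopulated against old, 1 rose and 1 fell, where 9.05% and 7.20% of all genes did. Ceruloplasmin, encoded by Cp, oxidises iron as it leaves ferroportin, and it averaged 42.6 ± 7.81 CPM in old and 15.2 ± 6.49 CPM in young (log2 1.49, adjusted p = 5.59e-07). In old repopulated microglia Cp averaged 17.7 ± 4.77 CPM, against 42.6 ± 7.81 CPM in old (log2 −1.27, adjusted p = 1.40e-05), with no overlap. App, the amyloid precursor gene, was 473 ± 26.0 CPM in old and 371 ± 20.2 CPM in young (log2 0.35), and 634 ± 33.5 CPM in old repopulated microglia (log2 0.42 over old, adjusted p = 6.53e-07).

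Of 13 tested genes for haem, 3 rose and 1 fell in old against young microglia, where 11.0% and 10.7% of all genes did. In old repopulated against old, 2 rose and 3 fell, where 9.05% and 7.20% of all genes did. The repopulation counts were 0 and 7 on log2(TPM + 1), where 495 of all 14382 genes were called higher and 4284 lower. Median log2 changes were 0.22 and −0.10. Hp, haptoglobin, which binds free haemoglobin and is also a known neutrophil product, averaged 91.5 ± 42.0 CPM in old and 11.8 ± 4.36 CPM in young (log2 2.95, adjusted p = 2.52e-09) and 34.97 ± 14.4 CPM in old repopulated (log2 −1.39 over old, adjusted p = 3.88e-04). Alas1, the first enzyme of haem synthesis, averaged 104 ± 3.89 CPM in old and 79.0 ± 3.70 CPM in young (log2 0.39, adjusted p = 1.57e-05). Cd163, the haemoglobin scavenger receptor and itself one of the border-associated macrophage markers, averaged 5.50 ± 3.29 CPM in old repopulated and 46.3 ± 22.7 CPM in old microglia (log2 −3.07, adjusted p = 1.05e-06). Lrp1, the receptor for haem bound to haemopexin, averaged 2056 ± 160 CPM in old repopulated and 1551 ± 156 CPM in old (log2 0.41, adjusted p = 7.00e-05), a call lost on the TPM scale. Blvrb rose and Slc46a1 fell in old microglia as well, both with calls lost under at least 1 other setting.

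In the regulatory and hepcidin list of 10 tested genes, 2 rose and 1 fell in old against young microglia, where 11.0% and 10.7% of all genes did. In old repopulated against old 3 fell, where 7.20% of all genes did (median log2 −0.03 with age and −0.05 with repopulation). Hif1a, the hypoxia-inducible factor, averaged 139 ± 14.5 CPM in old and 103 ± 9.90 CPM in young (log2 0.44, adjusted p = 7.22e-05). Hfe, the haemochromatosis gene, which binds Tfrc, averaged 153 ± 27.3 CPM in old and 215 ± 15.2 CPM in young (log2 −0.49, adjusted p = 3.60e-05), and 126 ± 7.55 CPM in old repopulated (log2 −0.28 over old, adjusted p = 0.0197). Epas1 was the other riser in old microglia (log2 1.12, adjusted p = 0.0411) and fell in old repopulated ones (log2 −1.41, adjusted p = 0.0137). Bmp2 fell there too (log2 −2.35 at 0.568 ± 0.622 CPM in old repopulated and 2.90 ± 1.78 CPM in old, adjusted p = 0.0113). With the oligodendrocyte marker level as a covariate none of the 3 repopulation calls was left. Of 8 endothelial markers, 1 was called higher in old against young microglia and 4 were called lower in old repopulated against old. The part of endothelial cells in the changes of this list was not tested. Of 15 mitochondrial iron genes, 1 rose in old microglia, where 11.0% of all genes did, and 3 rose in old repopulated against old, where 9.05% did. Hscb, a chaperone of iron-sulfur cluster assembly, led both, at 22.6 ± 8.23 CPM in old repopulated, 11.04 ± 3.54 CPM in old and 7.48 ± 1.17 CPM in young (log2 1.03 over old, adjusted p = 4.56e-04, and 0.56 in old over young, adjusted p = 0.0477, lost under other settings). Iscu (log2 0.31) and Abcb10 (log2 0.39) were the other 2 and were lost under total-count scaling (median of the list 0.08 with repopulation and −0.05 with age).

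Nrf2 and Bach1 are the activator and the repressor known to govern transcription of Hmox1, Fth1 and Ftl1, and 16 further targets and regulators were read with them. Of the 16, 6 rose and 2 fell in old against young microglia (median log2 0.20), and none rose and 5 fell in old repopulated against old (median log2 −0.16), where 11.0% and 10.7% of all genes were called higher and lower with age and 9.05% and 7.20% with repopulation. Glutathione reductase, Gsr, averaged 53.9 ± 15.8 CPM in old and 19.6 ± 2.05 CPM in young (log2 1.46, adjusted p = 1.97e-09). Sulfiredoxin, Srxn1, averaged 16.5 ± 3.77 CPM in old and 6.14 ± 1.07 CPM in young (log2 1.42, adjusted p = 1.02e-07), and peroxiredoxin 1, Prdx1, 180 ± 29.9 and 101 ± 12.1 CPM (log2 0.83, adjusted p = 7.97e-07). Bach1, the repressor itself, averaged 120.0 ± 20.03 CPM in old and 154 ± 10.4 CPM in young (log2 −0.36, adjusted p = 0.00186).

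In old repopulated against old microglia, Gsr averaged 28.0 ± 3.90 CPM and 53.9 ± 15.8 CPM (log2 −0.95, adjusted p = 8.72e-06) and Srxn1 8.69 ± 1.80 CPM and 16.5 ± 3.77 CPM (log2 −0.92, adjusted p = 1.54e-04). The autophagy adaptor Sqstm1 (log2 −0.25, adjusted p = 0.00498) and thioredoxin reductase Txnrd1 (log2 −0.40, adjusted p = 0.00790) fell as well. Prdx1 was at 173 ± 34.96 CPM in old repopulated and 180 ± 29.9 CPM in old and did not pass the test. The members under the same factors stood at log2 0.33 (Fth1), 0.38 (Ftl1) and −0.08 (Hmox1) in this comparison. With total counts 9 of the 16 were called lower and on log2(TPM + 1) 11 were, and none was called higher under either. Of all 14382 genes, 2779 were called lower and 592 higher with total counts, and 4284 and 495 on log2(TPM + 1). Gsr moved with the neutrophil markers given above, whose part was not tested.

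**Figure D4:**
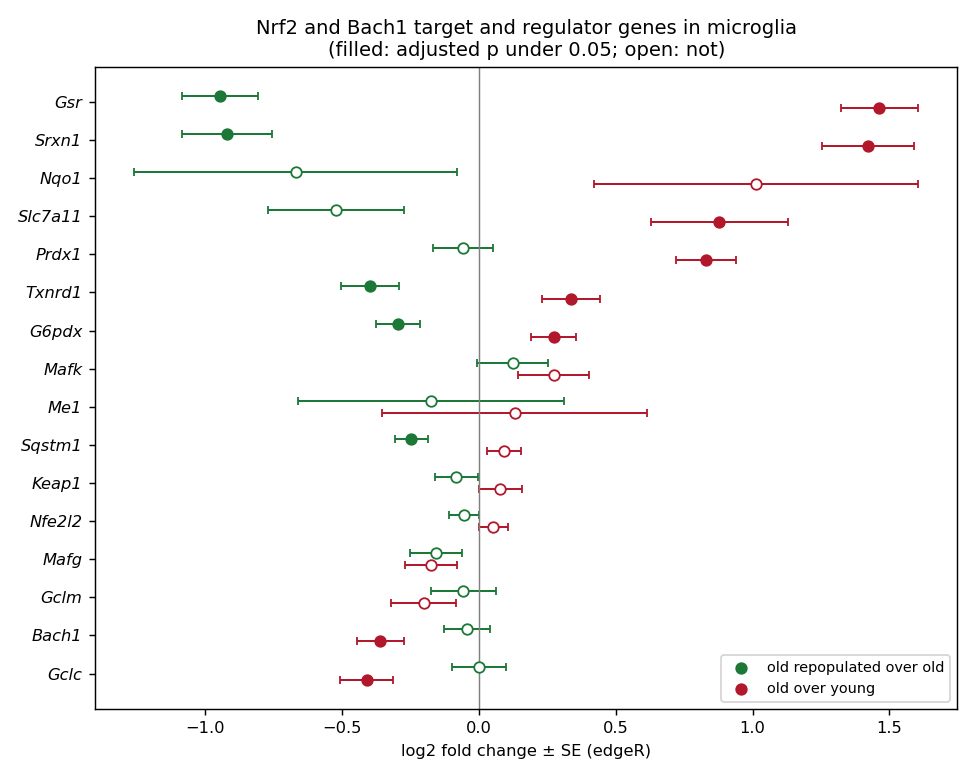
Log2 fold changes with standard errors of 16 Nrf2 and Bach1 target and regulator genes in microglia, with old repopulated over old drawn above old over young for each gene, filled where the adjusted p was under 0.05. Old libraries enter both comparisons, and Gsr stands at −0.95 for old repopulated over old and at 1.46 for old over young.

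In the ferroptosis list of 8 genes, 2 rose and 1 fell in old against young microglia, where 11.0% and 10.7% of all genes did. In old repopulated against old 2 rose, where 9.05% of all genes did (median log2 0.18 with age and −0.03 with repopulation). Lpcat3, which builds the polyunsaturated phospholipids that peroxidise, averaged 227 ± 26.2 CPM in old and 321 ± 37.7 CPM in young (log2 −0.50, adjusted p = 9.89e-06). Alox5 (log2 0.38, adjusted p = 0.00593) and Alox15 (log2 1.97 at 2.18 CPM in old, adjusted p = 0.00809) rose, though Alox15 was not called without old replicate 3. Gpx4, the phospholipid peroxidase, and Sat1 were called higher in old repopulated against old (log2 0.38 and 0.25), but with total counts in place of TMM none of the 8 was called higher and 3 were called lower. With total counts 592 of all 14382 genes were called higher and 2779 lower.

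In old against young spinal cord, Slc11a1 rose and Tfrc fell. Of the 8 genes 1 was called higher and 1 lower, where 4.88% of 18271 genes tested were called higher and 1.26% lower, and both had no overlap, against 3.06% of all genes. The median log2 change was 0.18 over the 8 genes and −0.01 over all. Slc11a1 ran from 9.64 through 10.9 to 13.4 CPM in old and from 3.27 through 3.82 to 4.46 CPM in young cord. Its mean of 11.2 ± 1.60 CPM in old was 2.93 times the 3.83 ± 0.368 CPM of young (log2 1.55, SE 0.12, adjusted p = 1.33e-09). Microglial markers called higher in the same libraries included C1qa by log2 1.64, Aif1 by 1.34, Cx3cr1 by 0.90 and Csf1r by 0.49, and Tmem119 (0.19), P2ry12 (0.10) and Sall1 (0.09) were not called. The ratio of Slc11a1 to Slc11a2 in TPM had a median of 0.496 in old and 0.185 in young cord, without overlap. In whole tissue more cells of a type and more RNA per cell cannot be told apart.

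Tfrc ran from 123 through 133 to 148 CPM in old and from 155 through 169 to 183 CPM in young cord. It averaged 133 ± 8.01 CPM in old and 168 ± 8.98 CPM in young, 1.27-fold lower (log2 −0.34, SE 0.05, adjusted p = 1.58e-05), and on log2(TPM + 1) its adjusted p was 0.187. Markers of Schwann cells, the myelinating cells of nerve roots, summed to 3167 to 5627 TPM in old and 5451 to 8413 TPM in young cord, and 2 of 5 were called lower. With that marker level as a covariate Tfrc was still called (log2 −0.36). That level itself differed with age, and no other cell type of cord was adjusted for. The part of cell composition in the Tfrc change was therefore not tested. The ratio of Tfrc to Fth1 had a median of 0.0103 in old repopulated, 0.0115 in old and 0.0166 in young cord, and young cord overlapped neither of the others.

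Ferritin was higher on average in old cord without passing the test over all 24 libraries. Ftl1 averaged 392 ± 47.6 CPM in old and 296 ± 44.9 CPM in young (log2 0.40, SE 0.17, adjusted p = 0.211), and Fth1 3449 ± 233 and 2890 ± 347 CPM (log2 0.25, SE 0.21, adjusted p = 0.666). Old repopulated cord replicate 6 is in neither group but widens the shared spread, with 11757 CPM of Fth1 where the next library of its group had 3866 CPM. Without it both genes were called higher in old cord, Ftl1 at log2 0.40 (adjusted p = 0.00199) and Fth1 at log2 0.26 (adjusted p = 0.00664), and 2109 genes were called in place of 1123. The values of Trf were 1189 ± 111 CPM in old and 1017 ± 180 CPM in young (log2 0.22, adjusted p = 0.382), of Slc40a1 15.2 ± 1.71 and 13.8 ± 1.31 CPM (log2 0.14, adjusted p = 0.471), of Hmox1 18.6 ± 2.89 and 17.4 ± 3.81 CPM (log2 0.10, adjusted p = 0.797) and of Slc11a2 55.0 ± 2.09 and 53.0 ± 2.90 CPM (log2 0.05, adjusted p = 0.653).

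No gene of the 8 was called in old repopulated against old cord by edgeR, where 0.148% of all genes were, 27 in number, and where 1099 genes had an unadjusted p under 0.05, 66 were called by DESeq2 and 53 by limma-voom. None of the 8 had groups without overlap, against 0.0493% of all genes. Tfrc was the only one of the 8 with an unadjusted p under 0.05 (0.0109), at 121 ± 8.47 CPM in old repopulated and 133 ± 8.01 CPM in old cord (log2 −0.13, SE 0.05, adjusted p = 0.681). Slc11a1 averaged 12.6 ± 3.02 CPM in old repopulated and 11.2 ± 1.60 CPM in old (log2 0.16, SE 0.11, adjusted p = 0.682). Fth1 averaged 4484 ± 2953 CPM in old repopulated and 3449 ± 233 CPM in old (log2 0.38, SE 0.21, adjusted p = 0.681), a difference that was −0.0011 without old repopulated replicate 6.

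In old repopulated against young cord, Slc11a1 and Ftl1 were called higher and Tfrc lower. In the same comparison 6 of 8 microglial markers were called higher, among them C1qa (log2 2.16), Aif1 (2.06) and Cx3cr1 (1.07), and 2 of 5 Schwann cell markers were called lower, and their part was not tested. Of all genes 7.28% were called higher and 2.78% lower, and 2 of the 8 had no overlap, against 3.61% of all genes. Slc11a1 averaged 12.6 ± 3.02 CPM in old repopulated and 3.83 ± 0.368 CPM in young cord (log2 1.71, SE 0.12, adjusted p = 1.82e-10). Tfrc averaged 121 ± 8.47 CPM in old repopulated and 168 ± 8.98 CPM in young (log2 −0.48, SE 0.05, adjusted p = 8.16e-08), lower in 8 of 8 libraries than in any young one. Ftl1 averaged 493 ± 231 CPM in old repopulated and 296 ± 44.9 CPM in young (log2 0.73, SE 0.17, adjusted p = 0.00400), and without old repopulated replicate 6 the change was 0.48 and still called. Fth1 missed the threshold (log2 0.63, SE 0.21, adjusted p = 0.0513) and was called without replicate 6 at a smaller change (log2 0.26, adjusted p = 0.00751), and also without replicate 1, 4, 5, 7 or 8 of that group (log2 0.66 to 0.69). Trf (log2 0.33, adjusted p = 0.0731), Hmox1 (0.21, adjusted p = 0.251), Slc40a1 (0.15, adjusted p = 0.237) and Slc11a2 (0.01, adjusted p = 0.930) did not pass, though Trf did without young replicate 5 (log2 0.38, adjusted p = 0.0333).

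**Figure D5:**
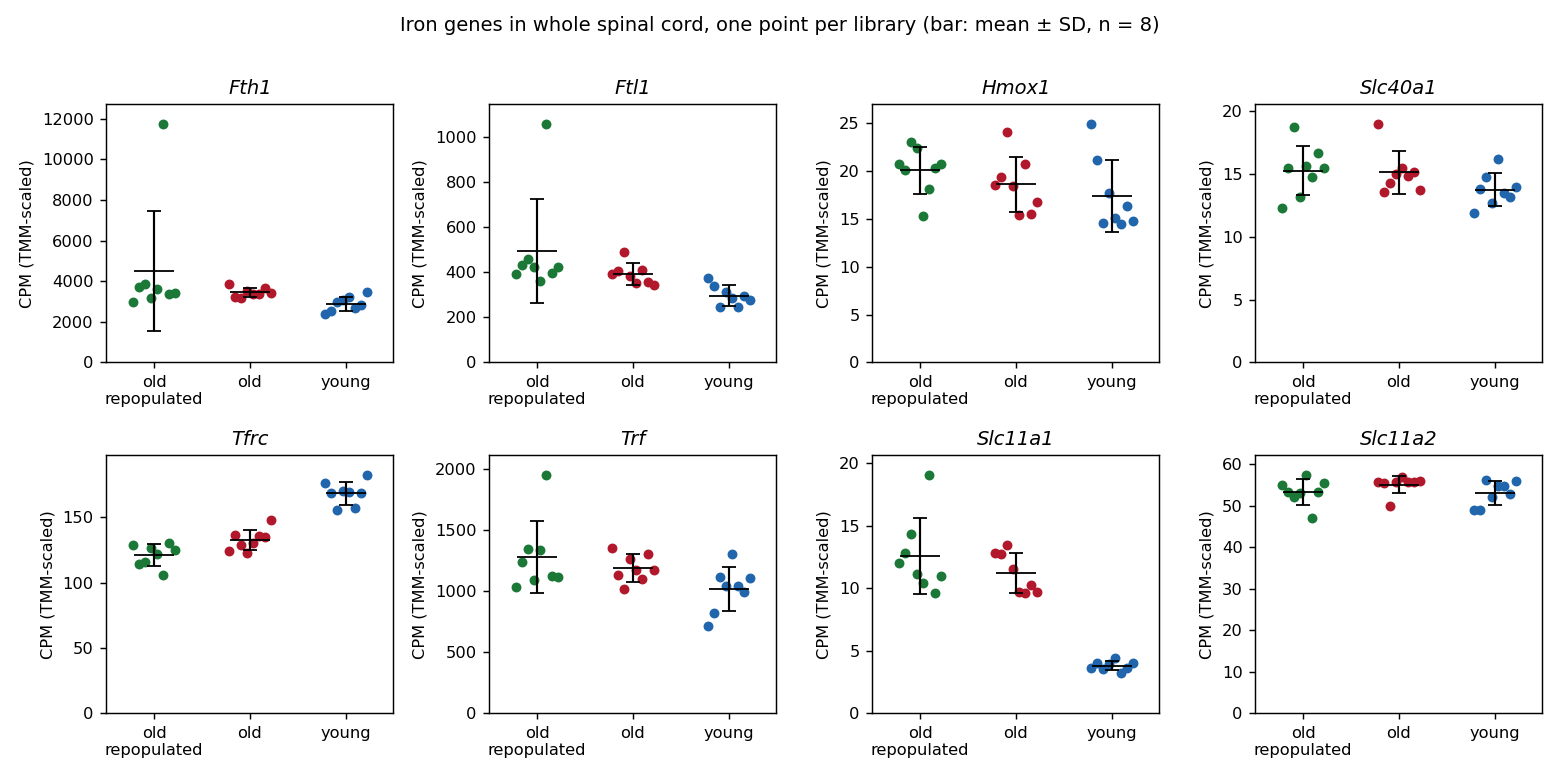
TMM-scaled CPM of the 8 iron genes in whole spinal cord, one point per library in replicate order, with the mean and SD of 8 libraries as a bar, for old repopulated, old and young mice from left to right. Slc11a1 lies above and Tfrc below the young range in all old and old repopulated libraries, and the single high Fth1 point at 11757 CPM is old repopulated replicate 6.

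Of the 87 list genes tested in cord, 3 were called higher and 3 lower in old against young, where 4.88% and 1.26% of all genes were. In old against young cord Hfe rose (14.3 ± 1.11 and 10.9 ± 1.24 CPM, log2 0.39, adjusted p = 5.46e-04), and Sat1 rose (90.7 ± 5.44 and 72.2 ± 5.28 CPM, log2 0.33, adjusted p = 0.00428). The iron regulatory protein gene Aco1 fell (39.9 ± 1.82 CPM in old and 45.4 ± 1.79 CPM in young, log2 −0.19, adjusted p = 0.00247), and so did the cystine transporter Slc7a11 (21.1 ± 3.84 and 30.4 ± 5.64 CPM, log2 −0.53, adjusted p = 0.0177) and Bmp2 (log2 −0.39, adjusted p = 0.0222). Steap4 rose (log2 0.52, adjusted p = 0.0380), a call lost without any one of 11 libraries. The Aco1, Slc7a11, Bmp2 and Steap4 calls were lost on log2(TPM + 1), and Aco1 also under total counts (adjusted p = 0.0605). These were 3 of 12 regulatory genes, 1 of 8 ferroptosis genes, 1 of 16 Nrf2 and Bach1 genes and 1 of 9 genes for handling iron inside the cell, and none of the tested genes for other uptake (9), export (4), haem (14) or mitochondrial iron (15) was called. Without old repopulated replicate 6, 5 of the 16 Nrf2 and Bach1 genes were called higher, where 1428 of all 18401 genes tested were. None of these lists had a call in old repopulated against old cord by edgeR. In old repopulated against young cord 6 of the 87 were called higher and 5 lower, where 7.28% and 2.78% of all genes were. Sat1 (log2 0.52, adjusted p = 1.05e-05), Hfe (0.35), Nfe2l2 (0.22), Mafk (0.19), Prdx1 (0.34) and Alas1 (0.17) were the higher ones, and Cd163 (−0.72), Slc7a11 (−0.52), Bmp2 (−0.37), Ireb2 (−0.28) and Aco1 (−0.19) the lower.

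The age effect differed between the tissues for 3 of the 8 genes, tested as an interaction over all 48 libraries. Fth1 rose more in microglia than in cord (difference of log2 changes 0.77, SE 0.24, adjusted p = 0.0178). Slc40a1 differed by −0.83 (SE 0.14, adjusted p = 1.27e-05), with a fall in microglia (log2 −0.52) and no call in cord (log2 0.14). Slc11a1 differed by −1.36 (SE 0.13, adjusted p = 4.84e-11), as it rose by more in cord (log2 1.55) than in microglia (log2 0.36). The changes within a tissue come from separate fits with their own scaling, so their difference need not equal the interaction value. Set against the median of all genes in this contrast, Fth1 lay at 0.91, Slc40a1 at −0.68 and Slc11a1 at −1.21. Among all 19110 genes 5.44% were called higher and 15.0% lower in this contrast, with a median of −0.15 that DESeq2 size factors moved to −0.01, where Hmox1 was also called (log2 0.53, adjusted p = 0.0194). Without old repopulated cord replicate 6, Ftl1 (0.45), Hmox1 (0.52) and Tfrc (0.51) were called higher as well. With marker levels as a covariate, oligodendrocyte in microglia and Schwann cell in cord, the Fth1 call was lost (0.61, adjusted p = 0.0608). Trf just missed the threshold (−0.40, adjusted p = 0.0510) and passed it without any one of 10 libraries. The repopulation effect, in the same kind of fit, differed between tissues for none of the 8 genes, where 11.0% of all genes were called, and the differences ran from −0.37 for Tfrc (adjusted p = 0.255) to 0.10 for Slc11a1 (adjusted p = 0.744).

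Library by library, the ferritin chains varied together in microglia. After subtracting group means, Fth1 and Ftl1 correlated at r = 0.95 over the 24 microglia libraries, and also at 0.95 over 22 without old repopulated replicates 1 and 5. In cord they correlated at 0.74 over 24 libraries but at −0.34 over 23 without old repopulated replicate 6. Tfrc and Trf correlated at 0.75 in microglia and at 0.14 without replicates 1 and 5. Such values share library, depth and scaling and are given as description, and the exclusions were chosen after seeing the data. The genes whose log2 CPM most resembled each member over the 24 libraries of a tissue, group differences included, were searched among 9367 genes in microglia and 12236 in cord. In microglia Fth1 was followed most closely by Pkm, Pea15a and Cd63 (r = 0.98 for each) and Ftl1 by Tspo, Gapdh and Tkt (0.97 each). Slc40a1 was nearest to Gpr155 (0.94), Pip4k2a (0.93) and P2ry12 (0.93), and Slc11a1 to Cd34 (0.96), Lgals3bp (0.94) and Eef1a1 (0.94). Hmox1 was nearest to Fblim1 (0.88), Tuba1c (0.87) and Txn1 (0.86), Tfrc to Ppil4 (0.88), Cnn3 (0.87) and Timp3 (0.85), and Trf to Icam1 (0.83), Spint1 (0.77) and Lag3 (0.74). Slc11a2 had the weakest neighbours, Smim14 (0.73), Mfge8 (0.71) and Msmo1 (0.70). The Tfrc neighbours rested on old repopulated replicates 1 and 5, since without them Ppil4 stood at 0.46, Cnn3 at 0.50 and Timp3 at 0.60, and Lag3 stood at 0.66 with Trf.

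In cord Slc11a1 was nearest to the macrophage genes Cd68 (0.99), Tyrobp (0.99) and Lyz2 (0.99). Tfrc was nearest to Sc5d (0.92), Insig1 (0.91) and Hmgcs1 (0.90), genes of sterol synthesis and its control. Trf was nearest to Hapln2 (0.98), Plekhb1 (0.96) and Cd83 (0.96), Fth1 to Dtnbp1, Sec11c and Rps15a (0.98 each), and Ftl1 to Tmem176b (0.98), Lgals1 (0.98) and Tmem176a (0.97). Hmox1 was nearest to Plp2 (0.90), Slc40a1 to Ptgr2 (0.79) and Slc11a2 to Unc13c (0.93). In TMM-scaled CPM, old repopulated cord replicate 6 was the highest of all cord libraries for Fth1, Ftl1, Trf and Slc11a1 and the lowest for Tfrc and Slc11a2. In TPM it was the lowest of its group for Trf (1250 TPM). For Slc11a1 it stood at 11.1 TPM, where its group reached 15.6 TPM. Without it Fth1 was nearest to Prnp (0.94), Gstm1 (0.94) and Zcchc7 (0.93), with Dtnbp1 at 0.91, and Ftl1 to Vim (0.98), while Cd68 with Slc11a1 (0.99), Hapln2 with Trf (0.97), Unc13c with Slc11a2 (0.90) and Ptgr2 with Slc40a1 (0.80) stayed first. Sc5d then stood at 0.91, Insig1 at 0.91 and Hmgcs1 at 0.90 with Tfrc, behind Tsc22d1 (0.92), and Plp2 at 0.90 with Hmox1, behind Mvp (0.93).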

How the data were processed

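RNA-seq count and TPM values are those the authors deposited for 48 libraries. Reads were aligned with STAR 2.5.2b to GRCm38.p5, per the submitters' processing notes, and no source used here names the counting tool or annotation. Deposited TPM equalled counts over length within 0.0496%, and the deposited FPKM were not used. The TruSeq v2 kit named in the labels does not mark strand, so overlapping antisense reads cannot be separated. Each tissue was fitted over its 24 libraries in edgeR 4.0.16 (R 4.3.3), with filterByExpr (minimum count 10, total 15), TMM scaling, quasi-likelihood tests and Benjamini-Hochberg adjustment over all genes tested, called under 0.05. Differences between tissues used all 48 libraries. The fit was tested on simulated data. All within-group library pairs differed beyond counting noise. Alternatives used DESeq2 1.42.0, limma 3.58.1 and log2(TPM + 1 or 0.1). The marker covariate was the oligodendrocyte marker level in microglia and the Schwann cell marker level in cord. Named list genes were at most 4 per list and comparison, by smallest adjusted p, and likeness took the 3 highest correlations among genes averaging 5 CPM or more (prior count 1). Members and lists were chosen with earlier results of these data known.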

Additional observations from a re-analysis of the deposited data

Results flagged for a closer look

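In 7 of 48 sets of 8 libraries, 1 library lay far from the other 7, where chance gives about 1 in 20. Old repopulated cord replicate 6 was the highest of its group for Fth1 (11757 CPM, next 3866 CPM), Ftl1 (1059 CPM, next 460.0 CPM) and Trf (1953 CPM, next 1347 CPM). In TPM the same library was the lowest of its group for Trf (1250 TPM). Old cord replicate 3 was the highest for Ftl1 (491 CPM, next 409.3 CPM) and the lowest for Slc11a2 (50.0 CPM, next 55.3 CPM). Slc40a1 was highest in old cord replicate 1 (19.0 CPM, next 15.5 CPM) and lowest in young microglia replicate 7 (162 CPM, next 202 CPM).

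The age effect differed between tissues in the interaction test, as microglia minus cord, for Fth1 (0.77), Slc40a1 (−0.83) and Slc11a1 (−1.36).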

How the results depend on the processing

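Besides leaving out single libraries, 727 values of the 8 genes kept their direction and call, 54 gained a call and 27 lost one. Old repopulated against old microglia changed most. Its members called were 1 with only the groups compared, with the marker covariate and without old replicates 2 and 7, and its members higher were 1 in the same fits and 0 with total counts and both TPM scales. Its members lower were 3 with total counts, 1 with DESeq2 and 4 on both TPM scales, and all genes called were 4779 on log2(TPM + 1), 4643 on log2(TPM + 0.1) and 1380 with the covariate. Among all 14382 genes, 592 were called higher and 2779 lower with total counts, and 1397 and 1306 with DESeq2. On log2(TPM + 1) 495 were called higher and 4284 lower, and on log2(TPM + 0.1) 485 and 4158. Sat1, called higher at log2 0.25, was −0.019 on log2(TPM + 1) and −0.019 on log2(TPM + 0.1). Old repopulated against young microglia had 2 members lower on both TPM scales, with 7378 and 7478 genes called. Old against young cord had 4 members called and 3 higher by limma-voom, with only the groups compared and without old repopulated replicate 6 (2430, 1844 and 2109 genes in all), 2 higher on the TPM scales and with the covariate, and 0 lower on the TPM scales. Old repopulated against old cord had 66 genes called by DESeq2, 53 by limma-voom, 13 and 12 on the TPM scales and 52 with the covariate. Old repopulated against young cord had 5 members called and 4 higher by limma-voom and 6 and 5 with the covariate, and 1030 and 1003 genes on the TPM scales, 1211 with only the groups compared and 3384 with the covariate. The age difference between tissues had 5 members called by DESeq2 and without repopulated microglia 1 and 5, and 6 with only the groups compared and without the libraries apart. Its members higher were 2 with DESeq2 size factors, total counts, no filter and without repopulated microglia 1 and 5, 3 by DESeq2, 4 with only the groups compared and without the libraries apart, and 0 with the covariate, and 2606, 2076 and 1835 genes were called with total counts and on the TPM scales. The repopulation difference had 3307 genes called with total counts and 1137 with only the groups compared. The causes were not tested.

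Leaving out 1 library at a time gave 5 to 6 members called and 4 to 5 higher in old against young microglia. Old repopulated against old microglia gave 1 to 4 called, 1 to 3 higher and 0 to 1 lower. Old against young cord gave 2 to 4 called, 1 to 3 higher and 943 to 2109 genes. Old repopulated against old cord gave 16 to 57 genes, and old repopulated against young cord 3 to 4 members called. The age difference gave 3 to 6 called, 1 to 4 higher and 2 to 3 lower.

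Between groups of the same tissue, replicate numbers gave no sign of pairing. Correlations of same-numbered libraries ran from −0.493 to 0.431, and at most 2 of 8 pairs were best with their own number. Pairing of microglia with cord libraries of the same group and number was not tested. With the number as a block the repopulation difference had 1388 genes called, against 2107 without it, and Slc11a2 in old against young microglia was not called. Of called genes, the share higher was 60.9% with DESeq2 size factors against 50.7% with TMM in old against young microglia, and 49.3% against 26.6% in the age difference. In old against young microglia, Tfrc, at a low level, had the largest standard error of the 8 genes (0.18). In old against young cord the abundant Fth1 had the largest (0.21), and Slc11a1, low in young cord, had 0.12.

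The correlation of Fth1 with Ftl1 in cord was −0.34 without old repopulated replicate 6, and that of Tfrc with Trf in microglia was 0.14 without old repopulated replicates 1 and 5.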
